A study of Mus musculus with 8 samples.

Results

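The canonical Wnt pathway ends in the nucleus on the Lef/Tcf factors, and the 10 genes described here encode the 4 mouse members of that family (Lef1, Tcf7, Tcf7l1 and Tcf7l2), β-catenin (Ctnnb1), its adaptors Bcl9 and Bcl9l, and 3 Groucho-type corepressors (Tle1, Tle2 and Tle3). They were taken by symbol from the 43629 Ensembl genes counted in each library, and the choice was made with earlier results of these data known. RNA-seq was performed on lower molars of E18.5 mouse embryos, with left and right molars of an embryo pooled into 1 library. The control group holds 4 Jagged1 fl/fl embryos (J3, J5, J6 and J7), which carry the floxed Jagged1 alleles without the Cre label, and the mutant group holds 4 K14:cre; Jagged1 fl/fl embryos (K14J26, K14J28, K14J29 and K14J30). Jagged1 is a membrane ligand of the Notch receptors. In the mutants it is deleted by a Cre transgene under the keratin 14 promoter, which is active in epithelium, whereas the libraries hold epithelium and mesenchyme together. Fewer cells of a type and less RNA per cell cannot be told apart in such whole-molar libraries. The paper's methods describe the controls as wild-type littermates of the mutants, whereas the labels name them Jagged1 fl/fl. Neither says which embryos shared a litter, and the labels do not give their sex. The p-values weigh the difference between the groups against the spread among the embryos within them, taken as independent.

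When Wnt ligands are absent, a cytoplasmic destruction complex built on Apc and Axin marks β-catenin for degradation, and Lef/Tcf factors on DNA recruit Tle corepressors. When Wnt ligands bind their Frizzled and Lrp receptors, β-catenin accumulates, enters the nucleus and displaces the corepressors, and Bcl9 proteins tie it to the Pygopus coactivators. In teeth, Lef1 is needed for development beyond the bud stage, and the pathway is active in the signaling centers that place the cusps.

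Totals ran from 17327224 to 29792467 counts per library. Levels are given as CPM, the counts of a gene per 1000000 counts of the library, after scaling by edgeR's TMM factors, and 3 counts corresponded to 0.0998 to 0.166 CPM. The TMM factor was 0.843 in K14J26, 0.969 in K14J29 and 1.02 to 1.04 in the other libraries, and a lower factor raises the CPM. The deleted gene Jag1 had 95.2 to 104 CPM in the controls and 34.0 to 57.1 CPM in the mutants (log2 fold change -1.19 ± 0.14, standard error, and adjusted p = 0.00517 in edgeR's quasi-likelihood test). Of 9 marker lists, the summed levels of ameloblast, dental epithelium and dental mesenchyme markers did not overlap between the groups. The summed level of 5 ameloblast markers was 557 to 3254 CPM in the controls and 3503 to 114369 CPM in the mutants, and these genes are the products of enamel-forming cells. The summed level of 7 dental epithelium markers was 5273 to 6134 CPM in the controls and 6197 to 9264 CPM in the mutants, and that of 7 dental mesenchyme markers 2594 to 3173 CPM and 2401 to 2581 CPM. Of these, 4 of the 5 ameloblast and 1 of the 7 epithelium markers were higher (edgeR adjusted p under 0.05), against 9.52% of all tested genes. The count of the epithelium list was thus near the background. By the same test 4 of the 7 mesenchyme markers were lower, against 6.61% of all tested genes. They were Pax9, Barx1, Twist1 and Msx1, with log2 fold changes of -0.82, -0.59, -0.33 and -0.26. The largest parts of the mesenchyme sum were Col3a1 (means of 1624 CPM in the controls and 1394 CPM in the mutants) and Vim (845 and 863 CPM). Neither was called, and the values of both overlapped between the groups. The summed level of 5 odontoblast markers, products of dentin-forming cells, was 4506 to 8442 CPM in the controls and 7810 to 24159 CPM in the mutants, which overlapped. Of these genes, 4 were higher (edgeR adjusted p under 0.05), against 9.52% of all tested genes. The bone, endothelium, blood and immune, and nerve and Schwann sums overlapped as well. Bglap (log2 fold change 2.56, edgeR adjusted p = 0.0165) and Sp7 (0.38, adjusted p = 0.0390) of the 4 bone markers and Tubb3 (0.48, adjusted p = 0.0448) of the 4 nerve markers were nevertheless higher, against the same 9.52%. No marker of these lists was at 0 in all libraries. Skeletal muscle markers summed to 373 CPM in J6 and 183 CPM in J7, and to at most 17.4 CPM in the other libraries. Transcripts of Xist, expressed from the inactive X chromosome, stood at 1930 CPM in mutant K14J28 and at 1468 CPM in mutant K14J29, with no more than 1.09 CPM in any other library.

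All 10 genes passed the count filter. Of these, Lef1, Tcf7, Tcf7l1 and Tle1 were lower in mutant molars at an adjusted p under 0.05 over the 17129 genes tested (edgeR quasi-likelihood test), while 6.61% of all tested genes were called lower. None of the 10 was called higher, against 9.52% of all tested genes. At an unadjusted p under 0.05, 6 members were lower and 0 higher, against 15.7% and 19.1% of all tested genes. DESeq2 called 7 lower and 0 higher, against 10% and 13.1% of the 17103 genes to which it gave an adjusted p. By a second rule, an unadjusted p no higher than 0.05 together with a log2 fold change of 0.5 or more in either direction, Lef1, Tcf7 and Tle1 were lower and no member higher, against 5.85% and 8.33% of all tested genes. The 4 control and 4 mutant values did not overlap for 6 genes (Lef1, Tcf7, Tcf7l1, Ctnnb1, Bcl9 and Tle3), all lower in mutants, against 11.6% of all tested genes. The median log2 fold change was -0.18 over the 10 genes and 0.01 over all tested genes.

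**Figure D1:**
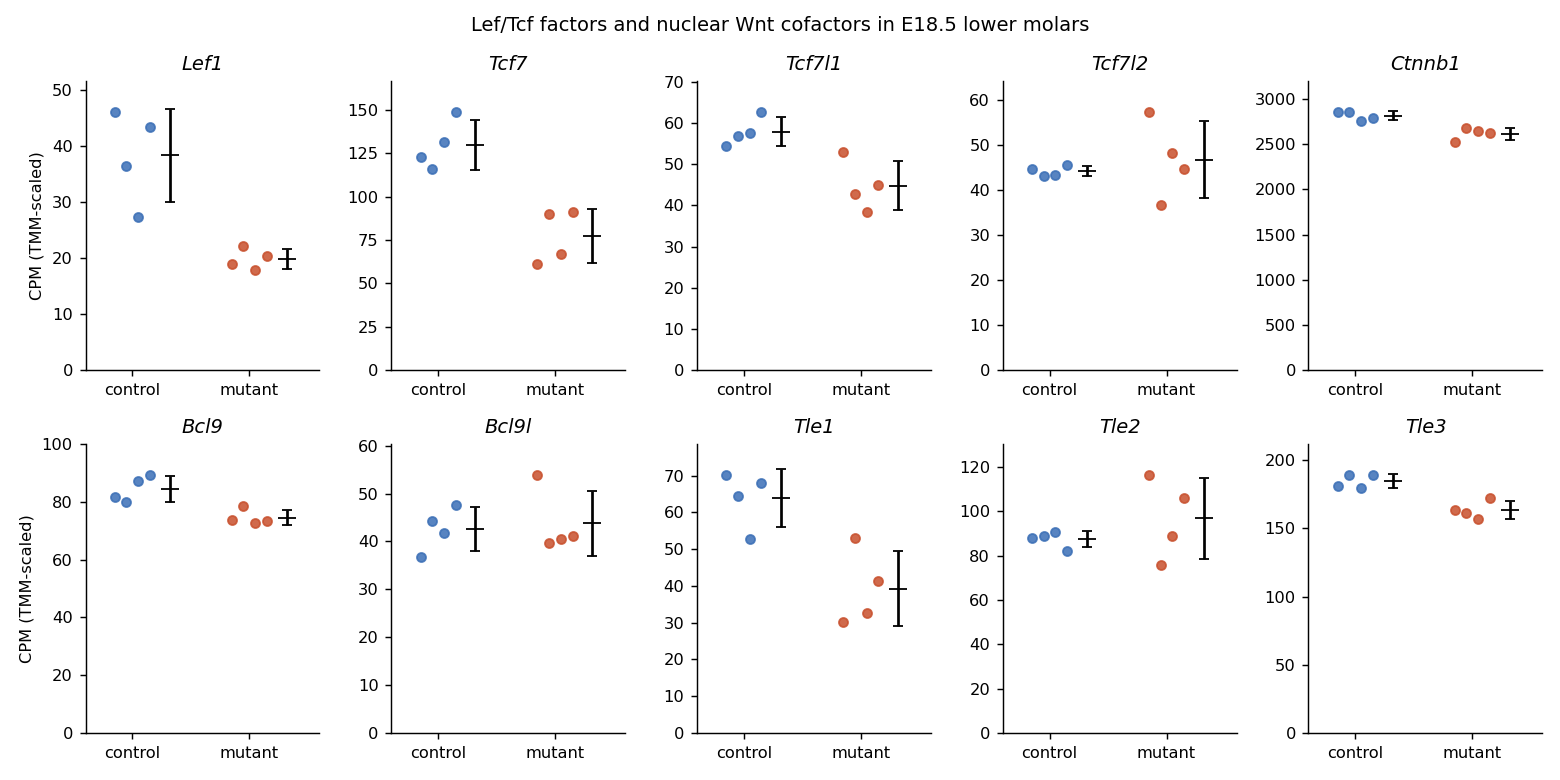
Level of each of the 10 genes per embryo, in TMM-scaled CPM on linear axes that start at 0, for Jagged1 fl/fl controls (blue) and K14Cre;Jagged1 fl/fl mutants (orange). Black bars give mean ± SD of 4 embryos; the Lef1 and Tcf7 points of the groups are separate, and the Tcf7l2, Bcl9l, Tle1 and Tle2 points overlap.

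Lef1 (ENSMUSG00000027985, chromosome 3 of GRCm38 from 131110471 to 131224356) encodes the Lef/Tcf factor most closely tied to tooth formation. It had 46.1, 36.5, 27.4 and 43.5 CPM in the controls J3, J5, J6 and J7, and 18.9, 22.2, 17.99 and 20.4 CPM in K14J26, K14J28, K14J29 and K14J30 of the mutant group. The control values were spread more widely than the mutant ones, and J6 lay closest to the mutants. The group means were 38.4 ± 8.37 CPM and 19.9 ± 1.83 CPM (SD, n = 4 each), a fall of 48.2%. The log2 fold change was -0.95 (standard error 0.15, 95% confidence interval from -1.30 to -0.60, edgeR adjusted p = 0.0104), the lowest of the 10, and the gene ranked 407 of 17129 from the lowest. With each of the 8 embryos left out in turn, its adjusted p ran from 0.00684 to 0.0438. Without J6 and J7, the controls with muscle transcripts, it was 0.114 at a log2 fold change of -1.06. Gm43352, on the opposite strand, shares 1208 exon bases with Lef1 and was not among the genes counted.

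Lef1 has several annotated starts, and the deposited counts join their transcripts. The bases before the first RefSeq start, upstream of the GENCODE gene, and before an internal start, within the gene but outside GENCODE exons, are shown because they are the regions before the starts of longer and shorter annotated messages. The sequences are from RefSeq on GRCm38.p6, plus strand, 5′ to 3′, and capitals mark CTTTGA on either strand, the core letters of the LEF/TCF motif.
Lef1, first start, chr3:131110047-131110296: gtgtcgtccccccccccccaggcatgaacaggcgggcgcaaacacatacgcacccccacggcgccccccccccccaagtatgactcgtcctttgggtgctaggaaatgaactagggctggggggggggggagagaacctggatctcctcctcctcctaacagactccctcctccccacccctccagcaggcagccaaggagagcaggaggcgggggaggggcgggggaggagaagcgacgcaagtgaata
Lef1, internal start, chr3:131156044-131156293: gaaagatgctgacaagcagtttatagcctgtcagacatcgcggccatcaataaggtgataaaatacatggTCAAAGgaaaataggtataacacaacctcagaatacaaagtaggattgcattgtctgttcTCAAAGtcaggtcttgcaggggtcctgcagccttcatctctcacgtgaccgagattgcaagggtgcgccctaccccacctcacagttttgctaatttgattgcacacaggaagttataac
The internal window held 2 matches of CTTTGA, both on the strand opposite to the gene, beginning 180 and 120 bases before the start. Such a match occurred in 16.0% of the 32851 RefSeq windows of 300 bases (250 before to 50 after a start), and in 1 of the 15 windows of the 9 members that have any. The core letters of the RBPJ motif, TGGGAA on either strand, through which Notch signaling acts, occurred in 3 of the 4 Lef1 windows, after the start in each. Over the members it occurred in 4 of the 15 windows, against 25.6% of all windows, and in 2 of the 9 genes, against 28.3% of all genes, so the members were near the background. The windows of the first 2 starts overlap and share 1 match. A match is a description of letters and not of binding.

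Tcf7 (ENSMUSG00000000782, chromosome 11 from 52252371 to 52283014) encodes TCF1, a factor that activates or represses depending on isoform. It had 123, 116, 131 and 149 CPM in the controls in the order J3, J5, J6, J7, and 61.1, 90.3, 66.9 and 90.9 CPM in the mutants in the order K14J26, K14J28, K14J29, K14J30. Every mutant lay below every control, with K14J26 and K14J29 lowest. The means were 130 ± 14.1 and 77.3 ± 15.5 CPM (SD, n = 4 each), a fall of 40.4% (log2 fold change -0.75, standard error 0.14, 95% confidence interval from -1.06 to -0.43, edgeR adjusted p = 0.0151). The adjusted p rose to 0.0521 without J7 and to 0.0552 without K14J29, each at a log2 fold change of -0.68, and to 0.151 without J6 and J7, at -0.63. The antisense gene A630014C17Rik lies within the Tcf7 locus without sharing exon bases and had 25 to 77 counts per library, against 1272 to 4406 counts for Tcf7. The library kit does not mark strand.

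Tcf7l1 (ENSMUSG00000055799, chromosome 6 from 72626378 to 72789254) encodes TCF3 of the Lef/Tcf family, which acts mostly as a repressor. Its levels were 54.4, 57.0, 57.6 and 62.7 CPM in the controls and 52.9, 42.9, 38.5 and 45.1 CPM in the mutants, in the same order of embryos. The groups were separated by a narrow margin, since K14J26 lay just under J3. The means were 57.9 ± 3.46 and 44.8 ± 6.03 CPM (SD, n = 4 each), and the log2 fold change between them was -0.37 (standard error 0.10, 95% confidence interval from -0.59 to -0.15, edgeR adjusted p = 0.0348). This call was lost in 6 of the 8 fits that left out 1 embryo, with an adjusted p of 0.0697 without J3, 0.0709 without J5, 0.0692 without J6, 0.0933 without J7, 0.0900 without K14J29 and 0.0620 without K14J30, and the log2 fold change ran from -0.46 to -0.30 over the 8 fits. Without both Xist-positive mutants the log2 fold change was -0.25 (adjusted p = 0.108), and without J6 and J7 it was -0.32 (adjusted p = 0.224). The antisense gene Gm15401 shares 179 exon bases with Tcf7l1 and had 5 to 20 counts per library, against 983 to 1856 for Tcf7l1. The window of Tcf7l1 held 1 match of the RBPJ core letters, on the strand opposite to the gene and beginning 55 bases before the RefSeq start, shown here in capitals within 30 bases of the minus strand of GRCm38.p6 (RefSeq) because it is the only such match before a RefSeq start among the members. The longer GENCODE gene model starts further upstream, so the match lies within its first exon.
Tcf7l1, chr6:72789083-72789112: tgctgggcccgcTTCCCAcagagccacgcc

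Tcf7l2 (ENSMUSG00000024985, chromosome 19 from 55741820 to 55933654) encodes TCF4 of the Lef/Tcf family, the main β-catenin partner in intestinal epithelium. It had 44.7, 43.2, 43.4 and 45.6 CPM in the controls and 57.4, 36.8, 48.3 and 44.6 CPM in the mutants. The controls lay within a narrow range, and the mutants lay on both sides of it, with K14J26 highest and K14J28 lowest. The log2 fold change was 0.08 (standard error 0.12, edgeR adjusted p = 0.664), with a 95% confidence interval from -0.19 to 0.35 that leaves out a fall of the size estimated for Lef1, Tcf7 or Tcf7l1. Its sign depended on K14J26, without which it was -0.032, and on the scaling (-0.036 by library size only).

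**Figure D2:**
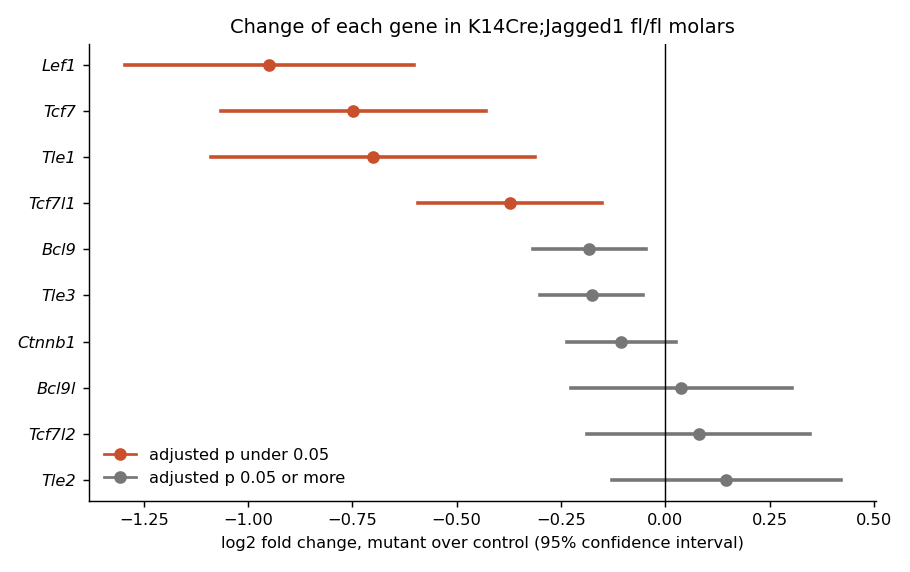
Log2 fold change of each gene, mutant over control, from edgeR's quasi-likelihood fit of 8 libraries, with its 95% confidence interval on the horizontal axis. Lef1, Tcf7, Tle1 and Tcf7l1 (orange) had an adjusted p under 0.05, and the intervals of Ctnnb1, Bcl9l, Tcf7l2 and Tle2 include 0.

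Ctnnb1 (ENSMUSG00000006932, chromosome 9 from 120929216 to 120960507), whose product is both the nuclear coactivator and a part of cadherin junctions, had 2854, 2857, 2756 and 2795 CPM in the controls and 2527, 2680, 2642 and 2621 CPM in the mutants. All mutants lay below all controls, by a small margin. The log2 fold change was -0.11 (standard error 0.06, 95% confidence interval from -0.24 to 0.03, edgeR adjusted p = 0.228), and the means were 2816 ± 48.8 and 2617 ± 65.0 CPM (SD, n = 4 each). DESeq2 gave an adjusted p of 0.0474 at -0.11. Ulk4, on the opposite strand, shares 759 exon bases with Ctnnb1 and had 351 to 557 counts per library, against 51536 to 82753 for Ctnnb1.

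Neither adaptor of β-catenin passed the adjusted threshold. Bcl9 (ENSMUSG00000038256, chromosome 3 from 97203662 to 97297917) had 81.9, 79.8, 87.4 and 89.5 CPM in the controls and 73.8, 78.6, 72.7 and 73.3 CPM in the mutants. All mutants lay below all controls, K14J28 just so. The log2 fold change was -0.18 (standard error 0.06, 95% confidence interval from -0.32 to -0.05, edgeR adjusted p = 0.0671), and the adjusted p was 0.0372 without K14J28 (-0.21), 0.0395 by upper-quartile scaling and 0.0430 by DESeq2. Bcl9l (ENSMUSG00000063382, chromosome 9 from 44482825 to 44511896), the paralog, had 36.8, 44.2, 41.8 and 47.6 CPM in the controls and 53.9, 39.7, 40.5 and 41.1 CPM in the mutants. By TMM-scaled CPM, K14J26 was above all other embryos, and the remaining mutants lay within the control range. As a share of all counts of the library, Bcl9l was lower in K14J26 (1122 of 24692128) than in J7 (1409 of 28613574). Its log2 fold change was 0.04 (standard error 0.12, 95% confidence interval from -0.23 to 0.30, edgeR adjusted p = 0.846), and it was -0.077 without K14J26, -0.025 without J3, -0.074 by library size only and -0.0070 by upper-quartile scaling. On the opposite strand, Cxcr5 shares 110 exon bases with Bcl9l and had 0 to 2 counts per library, and Gm47205, which was not among the genes counted, shares 662.

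Among the corepressors, Tle1 was lower, while Tle2 and Tle3 were not called. Tle1 (ENSMUSG00000008305, chromosome 4 from 72117142 to 72200919) had 70.2, 64.4, 52.6 and 68.0 CPM in the controls and 30.2, 52.9, 32.5 and 41.4 CPM in the mutants. The groups overlapped only through K14J28, which lay just above J6. The means were 63.8 ± 7.84 and 39.2 ± 10.3 CPM (SD, n = 4 each), a fall of 38.4% (log2 fold change -0.70, standard error 0.17, 95% confidence interval from -1.09 to -0.31, edgeR adjusted p = 0.0293). The call was lost in 5 of the 8 fits that left out 1 embryo, with an adjusted p of 0.0812 without J3, 0.0701 without J5, 0.0831 without J7, 0.0860 without K14J29 and 0.0503 without K14J30. Without K14J26 and K14J29 together the log2 fold change was -0.44 (adjusted p = 0.0703), and without J6 and J7 it was -0.78 (adjusted p = 0.150). With single embryos left out it ran from -0.88 to -0.59. Gm11250, on the opposite strand, shares 247 exon bases with Tle1 and had 0 to 1 counts per library. The bases before the Tle1 start are given as the promoter of the corepressor that fell, up to the first base of the GENCODE gene, on the minus strand of GRCm38.p6 (RefSeq), and they held neither set of core letters.
Tle1, chr4:72200920-72201143: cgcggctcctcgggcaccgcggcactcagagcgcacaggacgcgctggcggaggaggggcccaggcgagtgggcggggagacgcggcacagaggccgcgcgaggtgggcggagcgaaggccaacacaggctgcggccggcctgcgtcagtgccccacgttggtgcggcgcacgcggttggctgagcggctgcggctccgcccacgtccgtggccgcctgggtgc

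Tle2 (ENSMUSG00000034771, chromosome 10 from 81574561 to 81590845) had 88.0, 88.8, 90.5 and 82.3 CPM in the controls and 117, 75.8, 88.7 and 106 CPM in the mutants. The mutants again lay on both sides of the controls, with K14J26 highest and K14J28 lowest, as for Tcf7l2. The log2 fold change was 0.15 (standard error 0.12, 95% confidence interval from -0.13 to 0.42, edgeR adjusted p = 0.417). It was 0.34 without both Xist-positive mutants, K14J28 and K14J29 (adjusted p = 0.0315). The antisense gene Gm15917 shares 98 exon bases with Tle2 and had 3 to 16 counts per library. Tle3 (ENSMUSG00000032280, chromosome 9 from 61372366 to 61418497), a further corepressor, had 181, 189, 180 and 189 CPM in the controls and 164, 161, 157 and 173 CPM in the mutants. All mutants lay below all controls. Its log2 fold change was -0.18 (standard error 0.05, 95% confidence interval from -0.30 to -0.05, edgeR adjusted p = 0.0544). The adjusted p was 0.0127 by DESeq2, 0.0345 by upper-quartile scaling and 0.0424 when 10 counts were asked of all 8 libraries.

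Levels of different genes were compared per length, as CPM divided by the kilobases of merged exon (RPKM). In the controls the order was Ctnnb1 (542 ± 9.40, SD, n = 4), Tcf7 (49.5 ± 5.38), Tle3 (15.9 ± 0.448), Tcf7l1 (14.8 ± 0.882), Tle2 (14.1 ± 0.570), Bcl9 (10.02 ± 0.535), Tle1 (7.33 ± 0.900), Bcl9l (5.33 ± 0.569), Tcf7l2 (5.04 ± 0.129) and Lef1 (4.37 ± 0.952). The control ranges of the neighbours Tle3 and Tcf7l1 overlapped, as did those of Tcf7l1 and Tle2, of Bcl9l and Tcf7l2, and of Tcf7l2 and Lef1, so these pairs were not ordered beyond their spread. In the mutants, Tle1 was at 4.51 ± 1.18 and moved below Bcl9l (5.48 ± 0.846) and Tcf7l2 (5.33 ± 0.973), with overlapping ranges, and Lef1 stayed last at 2.26 ± 0.208. By the length of the longest transcript, Bcl9l and not Lef1 was lowest in the controls (6.29 against 10.5), since the merged exons of Lef1 are longer than any single transcript (8788 against 3656 bases). By that length Tle1 stood above Bcl9 in the controls (14.6 against 13.9, with overlapping ranges). In the mutants it then stayed above Bcl9l (8.98 against 6.47, with overlapping ranges), so these orders depended on the length used.

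Within the Lef/Tcf family, the summed level was lower and the share of Tcf7l2 higher in every mutant than in every control. The summed RPKM of the 4 genes was 71.0, 67.9, 72.8 and 82.8 in the controls and 45.5, 52.1, 42.8 and 53.5 in the mutants. Tcf7 made up 65.2% to 68.8% of this sum in the controls, and 51.2%, 66.1%, 59.5% and 64.7% in K14J26, K14J28, K14J29 and K14J30. The share of Tcf7l2 was 7.17%, 7.25%, 6.80% and 6.27% in the controls and 14.4%, 8.06%, 12.9% and 9.49% in the mutants. The groups were separate also by the length of the longest transcript (11.7% to 13.3% against 14.9% to 24.6%). The shares of Lef1 overlapped between the groups, with 4.28% to 7.39% in the controls and 4.33% to 4.85% in the mutants. These shares were not tested, because they follow from the levels of the members.

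**Figure D3:**
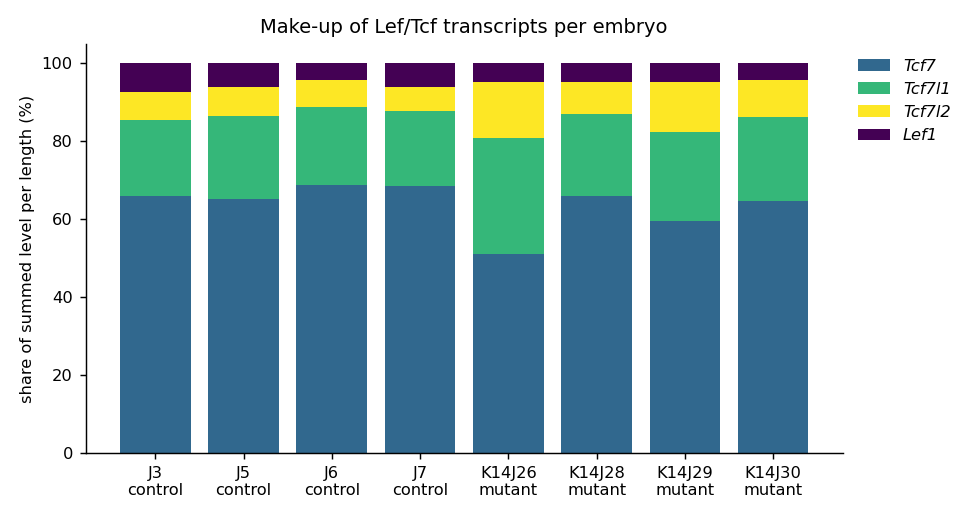
Share of each Lef/Tcf gene in the summed level per length (RPKM) for each embryo, stacked to 100%. Tcf7 is the largest part in all 8 embryos, and the Tcf7l2 part is at most 7.25% in the controls and at least 8.06% in the mutants.

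The mutants differed among themselves in enamel gene levels, and 2 of the 10 members, Tle1 and Tcf7l2, were singled out after their values were seen because they ran in the order of these levels in the mutants or in its reverse. The summed ameloblast markers were 114369 CPM in K14J26, 25820 CPM in K14J29, 9643 CPM in K14J30 and 3503 CPM in K14J28. Tle1 ran in the opposite order, from 30.2 CPM in K14J26 to 52.9 CPM in K14J28. Tcf7l2 ran in the same order as the markers, from 57.4 CPM in K14J26 down to 36.8 CPM in K14J28. The other 8 members did not follow this order in all 4 mutants, Tcf7 with 61.1, 66.9, 90.9 and 90.3 CPM among them. Among the controls, the markers summed to 3254 CPM in J6, 1903 CPM in J5, 680 CPM in J3 and 557 CPM in J7. Among the mutants Lef1 stayed within 17.99 to 22.2 CPM and was highest in K14J28. In the controls, Lef1 and Tle1 were lowest in J6 and next lowest in J5, while the control levels of Tcf7l2 stayed between 43.2 and 45.6 CPM. The part of these marker levels, or of those of the epithelium and mesenchyme lists, in the differences between the groups was not tested, and because the sums of the 3 lists did not overlap between the groups they cannot be told apart from the genotype.

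**Figure D4:**
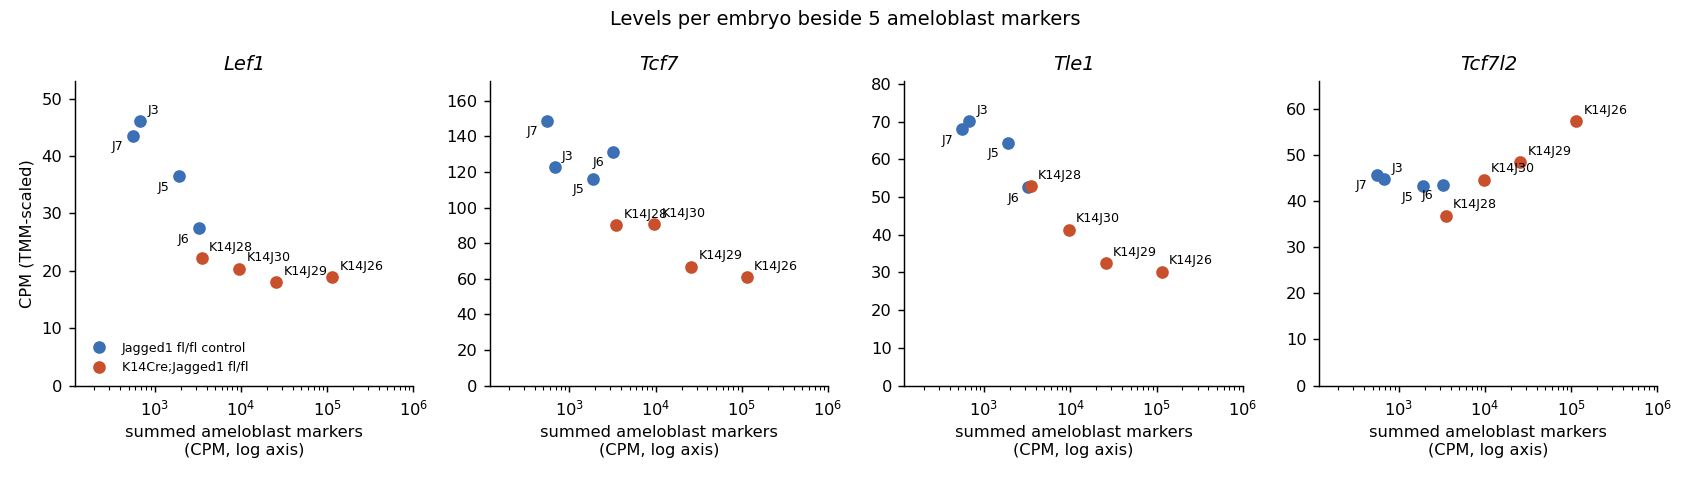
CPM of Lef1, Tcf7, Tle1 and Tcf7l2 (linear axes) beside the summed CPM of 5 ameloblast markers (logarithmic axis) in each embryo, controls in blue and mutants in orange. Lef1 and Tle1 are highest in J3 and J7, which have the lowest marker sums, and Tcf7l2 is highest in K14J26, which has the highest.

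Over the 8 embryos, the 5 genes most like Lef1 by Pearson's r of log2(CPM + 0.5), of 17128 compared, were Gnb1, Krt18, Nufip1, Rbpms and Dio3, all with r = 0.98. These values are a description over 8 libraries that share the genotype difference. With the group means removed, their r with Lef1 was 0.91, 0.93, 0.89, 0.89 and 0.91. Krt18, a keratin of simple epithelia, had 38.9 to 51.6 CPM in the controls and 25.9 to 29.3 CPM in the mutants. The difference of Gnb1 was much smaller (log2 fold change -0.14, edgeR adjusted p = 0.0979) than that of Krt18 (-0.76, adjusted p = 0.00528), so a high r did not mean a difference of like size. Among the members, Tle1 was most like Lef1 (r = 0.92, and 0.72 with the group means removed), and Tle2 least (-0.43 and -0.30).

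Of 26 other nuclear cofactors and corepressors of the pathway, 22 were not called, 2 were lower and 2 higher at an adjusted p under 0.05 (edgeR quasi-likelihood test), while 6.61% of all tested genes were lower and 9.52% higher. The median log2 fold change of the list was -0.02. Tle4, a further Groucho-type corepressor, had 70.7, 70.8, 76.0 and 67.7 CPM in the controls and 112, 83.8, 101 and 85.7 CPM in the mutants. Every mutant was above every control, the opposite of the change of Tle1, and the difference was 0.43 on the log2 scale (standard error 0.10, edgeR adjusted p = 0.0242). Nlk, a kinase that phosphorylates Lef/Tcf factors, was higher (0.23, adjusted p = 0.0474). Lower were Ctnnbip1, which blocks the binding of β-catenin to Lef/Tcf (-0.40, adjusted p = 0.0330), and the corepressor Ctbp1 (-0.23, adjusted p = 0.0330). By library size only, without TMM, Nlk was not called (adjusted p = 0.386), nor were Ctbp1 and Ctnnbip1 (0.0565 and 0.0604), while Tle4 was (0.0284).

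Of the 17 genes of the destruction complex and its regulators, 2 were higher and 0 lower (edgeR adjusted p under 0.05), against 9.52% and 6.61% of all tested genes. At an unadjusted p under 0.05, 3 were higher and 2 lower, against 19.1% and 15.7% of all tested genes, and DESeq2 called 3 higher and 2 lower, against 13.1% and 10%. The median log2 fold change was -0.0029. The scaffold Apc was higher (0.49, standard error 0.12, edgeR adjusted p = 0.0293), and the kinase Csnk1d was marginally so (0.17, adjusted p = 0.0496), which did not hold by library size only (adjusted p = 0.589). Of 17 receptors and receptor regulators, 3 were lower and 1 higher, against the same shares. Fzd1, Fzd10 and Fzd2 were lower (-0.65, -0.41 and -0.37, edgeR adjusted p = 0.00885, 0.0195 and 0.0234) and Fzd6 was higher (0.49, adjusted p = 0.0355). These encode Frizzled receptors, and the median of the list was -0.13.

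Among 20 tested genes known as targets of Lef/Tcf factors, 4 were lower and 0 higher (edgeR adjusted p under 0.05), against 6.61% and 9.52% of all tested genes. At an unadjusted p under 0.05, 7 were lower and 3 higher, against 15.7% and 19.1% of all tested genes, and DESeq2 called 6 lower and 0 higher, against 10% and 13.1%. The median was -0.22. Lef1 and Tcf7, also known as targets, were left out of this list because they are members. Some of its genes, Axin2 among them, are also in the destruction complex or receptor list. Sp5, a transcription factor, was near the detection limit with 7 to 18 counts in the controls and 3 to 8 counts in the mutants (-1.64 ± 0.38 on the log2 scale, standard error, with an edgeR adjusted p of 0.0249). The receptor Tnfrsf19 fell by 0.36 on the log2 scale (adjusted p = 0.0233), the feedback inhibitor Nkd2 by 0.36 (adjusted p = 0.0295) and the transcription factor Sox4 by 0.28 (adjusted p = 0.0325). Axin2, the target most used as a readout of the pathway, was named after its values were seen. Its level was 35.3 to 43.2 CPM in the controls and 26.1 to 50.2 CPM in the mutants, highest in K14J26, and the groups overlapped (log2 fold change -0.17, standard error 0.18, edgeR adjusted p = 0.531).

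Tcf3, Tcf4 and Tcf12 carry similar symbols but encode E proteins of the basic helix-loop-helix family, which do not bind β-catenin as Lef/Tcf factors do. All 3 were lower, with log2 fold changes of -0.31, -0.27 and -0.34 (edgeR adjusted p = 0.0205, 0.0138 and 0.0207), against 6.61% of all tested genes called lower. The 17 genes called in these lists and among the E proteins kept their direction in every alternative in which they were tested, but the number called changed with the embryos. All 17 were called without K14J26 and 16 without K14J28, but 1 without K14J29, 2 without J7, 3 without J3, 4 without J5, 8 without J6 and 13 without K14J30. The remaining call without K14J29 was that of Fzd1. Over all tested genes the calls also fell in that fit, from 1133 lower and 1631 higher to 170 and 250.

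**Figure D5:**
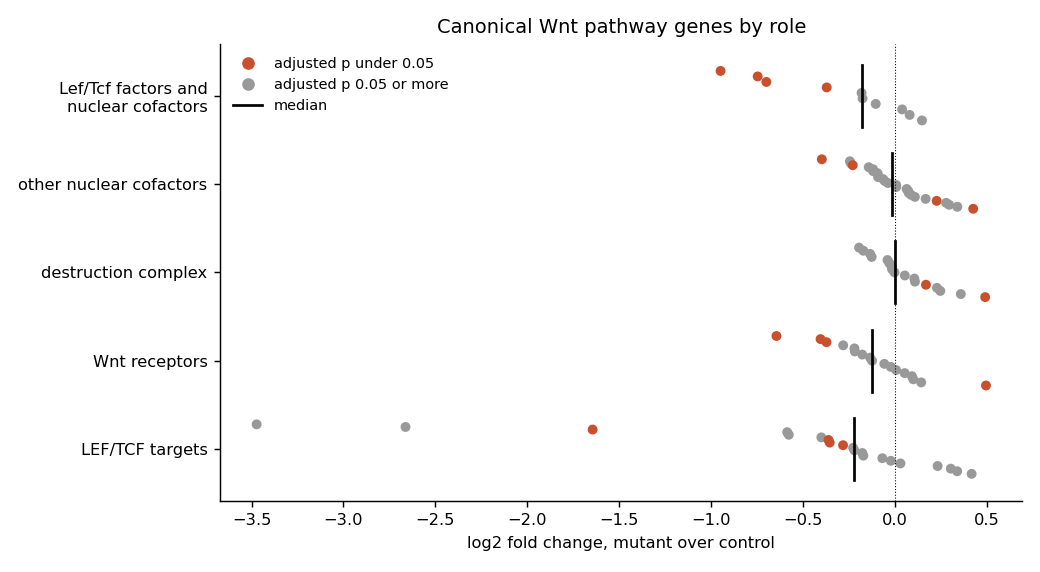
Log2 fold change of each tested gene, mutant over control, grouped by role in the canonical Wnt pathway (rows), with the median of each row as a black line. Points in orange had an adjusted p under 0.05 in edgeR's quasi-likelihood test, and the row medians run from -0.22 (Lef/Tcf targets) to -0.0029 (destruction complex).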

How the data were processed

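Reads from 8 libraries, 1 per embryo, were trimmed by the authors with Trimmomatic, aligned with STAR to GRCm38 and counted per Ensembl gene. The methods name GenomicRanges and the submitters' processing notes featureCounts, and the treatment of strand and of reads with several matches is not given in the sources used here. The deposited counts are whole numbers without normalization. Symbols, positions and exon lengths came from GENCODE M21 on GRCm38, which held 42462 of the 43629 identifiers and all 10 members, and promoter sequences from RefSeq (GRCm38.p6), which held 9 of them.

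A gene was kept when 2 or more of the 4 embryos in one of the groups had 10 or more counts (17129 genes). Groups were compared by edgeR 4.0.16 (quasi-likelihood test, R 4.3.3), with TMM scaling, no covariate and Benjamini-Hochberg adjustment over all genes kept. Standard errors were derived from the F statistic, as the size of the log2 fold change over the root of F. The alternatives were other scalings, other count filters, DESeq2 1.42.0, leaving out the 20 most abundant genes, and leaving out embryos singly or in pairs. A gene that was not called is not thereby shown to be unchanged. The members and gene lists were chosen with earlier results of these data known. The genes named are the members, Jag1, the pathway list genes with an adjusted p under 0.05, the 5 genes most like Lef1, and genes on the opposite strand that share exon bases with a member, with A630014C17Rik at Tcf7. Marker lists are given by their sums and counts, with the 4 called mesenchyme markers, Col3a1, Vim, Bglap, Sp7 and Tubb3 named after their values were seen. Axin2, and Xist as a check of the libraries, were named outside this rule, Axin2 after its values were seen. Libraries held 17327224 to 29792467 counts, and no alternative varied the depth. The second rule reads the fold change threshold of the study, stated as 0.5 without a scale, as log2 in either direction. Protein sequences were not used here.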

Additional observations from a re-analysis of the deposited data

Results flagged for a closer look

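In 5 of the 66 groups of 4 embryos examined (33 genes in 2 genotypes), 1 embryo stood apart from the others by Dixon's criterion, a gap above 0.829 of the range of the group, which chance exceeds in about 5% of groups. These levels are TMM-scaled, with the lowest factor, 0.843, in K14J26. Bcl9l was at 53.9 CPM in mutant K14J26, against 41.1 CPM in the next mutant. Apc was at 276 CPM in the same embryo, against 200 CPM in the next. In mutant K14J28, Tcf12 was at 259 CPM and Tnfrsf19 at 334 CPM, against 220 and 298 CPM in the next mutants, so that for both genes this embryo lay nearest the controls. Nlk was at 56.0 CPM in control J3, against 50.6 CPM in the next control, which placed J3 nearest the mutants.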

How the results depend on the processing

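Across 18 alternatives, 144 of 179 fits of a member gave the direction and the side of the threshold (edgeR adjusted p under 0.05) reported, 19 lost a call, 8 gained one and 8 changed sign; Ctnnb1, among the 20 most abundant genes, had 17. The sign changed for Tcf7l2 (-0.036 by library size only, -0.032 without K14J26 in a range of -0.032 to 0.17 over single embryos left out, -0.13 without K14J26 and K14J29) and for Bcl9l (-0.0070 by upper-quartile scaling, -0.074 by library size only, -0.025 without J3, -0.077 without K14J26 in a range of -0.077 to 0.090, -0.084 without K14J26 and K14J29), with adjusted p from 0.374 to 0.972. The count of members called lower was 7 with DESeq2, 0 in edgeR without the muscle-bearing controls J6 and J7 (3 by the unadjusted criteria), and 1 to 5 with 1 embryo left out; 1 member, Tle2, was called higher without the Xist-positive mutants. Without a fold threshold, 6 members were lower at an unadjusted p of at most 0.05. Over all tested genes, 1133 were lower and 1631 higher; with 1 embryo left out these counts ran from 170 to 1843 and from 250 to 2479. They were 1718 and 2244 with DESeq2, 4 and 3 without J6 and J7, 570 and 747 without K14J26 and K14J29, and 1060 and 855 by library size only, where the median log2 fold change of all genes was -0.09. Upper-quartile scaling gave 1448 and 1363. The cause was not tested; leaving out embryos also leaves fewer samples. Of 144 counts of called list genes under alternatives, 71 moved by over 1.5 times. No paired analysis was possible because the groups share no replicate numbers and the litter of each embryo is not given.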
